A study of Homo sapiens with 5 samples.

Results

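The regions described here were distal ATF3 sites that were listed only after camptothecin (CPT). They were selected on the peak lists themselves: an ATF3-CPT peak on chromosomes 1 to 22 or X was taken when its centre lay more than 2000 bp and at most 100000 bp from the nearest transcription start site (TSS) of a protein-coding gene, outside the exons of such genes, and when it shared no base with an ATF3-Ctrl or ATF3-KO peak. The rule left 26630 sites of the 70702 ATF3-CPT peaks, and they are called distal CPT-only sites. Of the 70128 peaks on these chromosomes, 61.5% shared no base with a peak of the other ATF3 libraries, and among the 41302 distal peaks the share was 64.5%. Because the comparison of the lists chose the members, these shares are given as a description and were not tested.

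ATF3 was immunoprecipitated from HCT116, a human colorectal cancer cell line, and bound DNA was sequenced (ChIP-seq). Cells with wild-type ATF3 had received either DMSO, the solvent (ATF3-Ctrl), or 1.5 uM of CPT (ATF3-CPT) for 4 h. ATF3-knockout cells, made by AAV-mediated homologous recombination and grown from a clone, had received DMSO (ATF3-KO), and no ATF3-KO library after CPT was analysed here. p53 was immunoprecipitated from p53 wild-type cells after CPT (p53-CPT) and from p53-knockout cells in DMSO (p53-KO), so that this pair differed in genotype and in treatment. In every group the chromatin had been fixed with DSG, a protein-to-protein crosslinker, and then with formaldehyde. Each group had 1 library and there were no replicates, so no difference between conditions was tested, and the intervals below cover counting error only.

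The ATF3-CPT, ATF3-Ctrl and ATF3-KO libraries held 15457013, 12947516 and 12820520 tags (aligned reads), and the p53-CPT and p53-KO libraries held 3169743 and 1984941. They gave 70702, 33966, 2231, 9211 and 7879 peaks, and 12.76%, 5.6% and 0.56% of the tags of the 3 ATF3 libraries lay in peaks. The findPeaks score counts the tags of a peak with at most 1 tag per position, and the lists began at a score of 9 in ATF3-CPT, 9 in ATF3-Ctrl and 11 in ATF3-KO. Peaks of ATF3-CPT were 125 bases wide. A normalized tag count, which includes repeated positions, is given per 10000000 tags of the library, so that 1 tag adds 0.647 in the ATF3-CPT library and 0.772 in that of ATF3-Ctrl.

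ATF3 is a basic leucine zipper protein whose synthesis is induced by many stresses. As a dimer, alone or with partners such as JUN, it binds the ATF/CRE core TGACGTCA and the related AP-1 core TGAGTCA, and with partners of the C/EBP family proteins of this class recognise a composite C/EBP-ATF element, TGATGCAA, in which the site of a C/EBP monomer is joined to that of an ATF monomer. Sites far from a TSS are often enhancers, which act on genes at a distance. CPT traps topoisomerase I on DNA and thereby causes DNA breaks, to which p53 and ATF3 both respond.

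The sequences of a few sites show what the set contained. All are the plus strand of hg19 over the whole peak, with the AP-1 core, the ATF/CRE core or the C/EBP-ATF element in capitals. The first 3 are among the highest-scoring sites with an AP-1 core that had no ATF3-Ctrl or ATF3-KO peak within 1000 bp, taken from those whose central 31 bases occur once in the genome. Each holds 2 AP-1 cores, as did only 2.88% of all sites. They lay at chr1:193084870-193084994 (6229 bp upstream of CDC73, which encodes a subunit of the PAF1 complex), chr15:68647319-68647443 (64831 bp downstream of the TSS of FEM1B, in an intron) and chr2:24679628-24679752 (34433 bp upstream of NCOA1, which encodes a nuclear receptor coactivator).
CDC73 site: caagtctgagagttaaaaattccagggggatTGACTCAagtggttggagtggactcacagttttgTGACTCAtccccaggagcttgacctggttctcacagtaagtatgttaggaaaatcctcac
FEM1B site: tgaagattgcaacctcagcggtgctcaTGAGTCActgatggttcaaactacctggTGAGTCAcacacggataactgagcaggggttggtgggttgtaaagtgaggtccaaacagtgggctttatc
NCOA1 site: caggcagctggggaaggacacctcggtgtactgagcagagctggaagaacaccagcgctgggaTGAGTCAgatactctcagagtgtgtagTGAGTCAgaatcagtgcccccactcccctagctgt

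The next is the highest-scoring such site with an ATF/CRE core, at chr11:44656278-44656402 (16520 bp downstream of a TSS of CD82, a tetraspanin gene), outside protein-coding genes. The last 2 hold the C/EBP-ATF element, at chr3:110764440-110764564 (24416 bp upstream of NECTIN3, which encodes a cell adhesion protein), where an AP-1 core lies beside it, and at chr10:98610622-98610746 (17895 bp downstream of a TSS of LCOR, which encodes a ligand-dependent corepressor, in an intron).
CD82 site: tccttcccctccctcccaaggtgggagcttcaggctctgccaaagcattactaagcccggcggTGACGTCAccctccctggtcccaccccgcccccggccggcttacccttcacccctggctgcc
NECTIN3 site: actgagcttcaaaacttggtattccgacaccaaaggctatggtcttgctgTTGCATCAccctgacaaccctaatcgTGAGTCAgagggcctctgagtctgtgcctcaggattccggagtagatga
LCOR site: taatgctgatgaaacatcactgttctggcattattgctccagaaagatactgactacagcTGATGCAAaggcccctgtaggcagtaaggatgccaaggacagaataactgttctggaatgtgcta

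Leaving aside a region shared with the mitochondrial genome, the highest-scoring site with no other ATF3 peak within 1000 bp holds none of these elements. It lay in an intron of DST, the dystonin gene, at chr6:56548881-56549005, and had a score of 82.
DST site: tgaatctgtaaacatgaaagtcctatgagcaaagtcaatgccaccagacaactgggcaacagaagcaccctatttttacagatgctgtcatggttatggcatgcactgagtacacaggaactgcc

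Most distal CPT-only sites were weak peaks. Their score had a median of 13, with quartiles of 10 and 18 and a range of 9 to 126, and their normalized tag count had a median of 8.4. The 14378 distal ATF3-CPT peaks that overlapped an ATF3-Ctrl peak and no ATF3-KO peak, called sites found before and after, had a median score of 36 and a median normalized tag count of 25.2. A score of at least 20 was reached by 21.7% of the CPT-only sites and by 78.7% of the sites found before and after. CPT-only sites made up 92.4% of the distal peaks with a score of 9 or 10, 61.2% of those between 20 and 29, and 3.94% of those at 50 or more. Since a peak was a member when no ATF3-Ctrl peak was listed there, these scores belong to the choice of members.

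**Figure D1:**
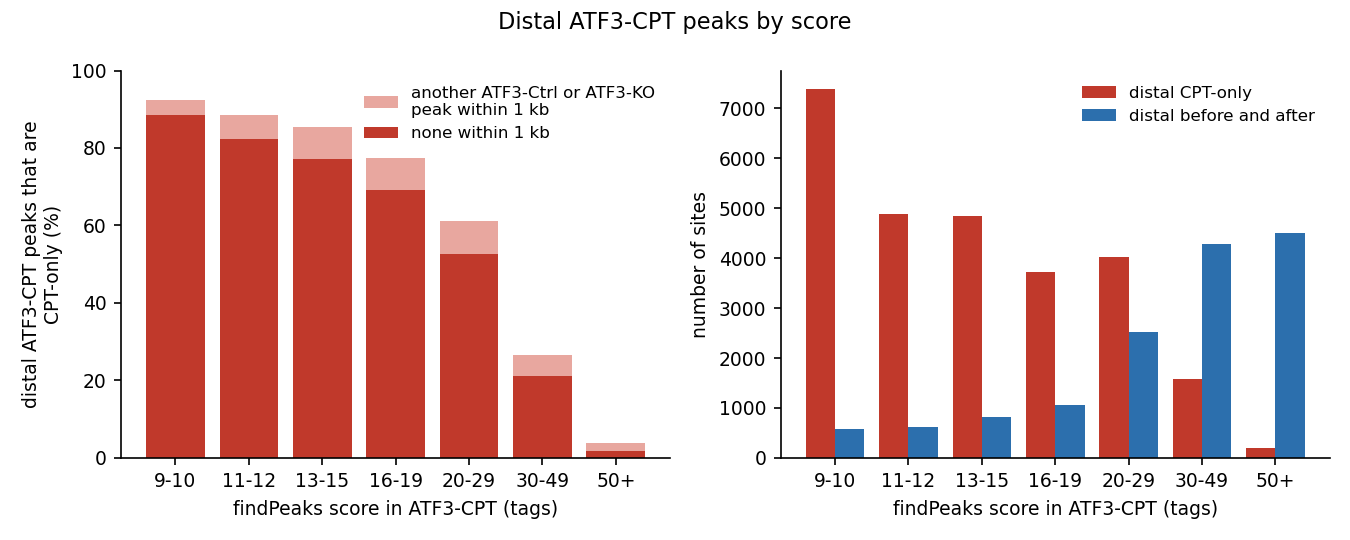
Distal ATF3-CPT peaks grouped by findPeaks score (x axis, tags). Left, the share of each group that was CPT-only (y axis, percent), split by whether an ATF3-Ctrl or ATF3-KO peak lay within 1000 bp; right, the number of CPT-only sites and of sites found before and after (y axis). The CPT-only share is 92.4% in the lowest group and 3.94% in the highest.

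The depth of the libraries set a limit on this comparison. Scaled by total tags alone, the ATF3-Ctrl threshold of 9 tags corresponded to 10.7 tags in ATF3-CPT, and 7391 sites (27.8%) scored below that. The libraries also differed in the share of tags in peaks (12.76% and 5.6%), which this scaling leaves out, so the score at which equal occupancy would be listed in both is unknown. Absence from the ATF3-Ctrl list does not show that a site was unbound before CPT.

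At the other end of the scale, the strongest CPT-only sites mostly lay beside a peak that had been present before CPT. The 10 highest scores ran from 101 to 126, and 9 of these 10 sites had an ATF3-Ctrl peak within 100 bp that did not overlap them. The site near GALNT9, which encodes an enzyme of mucin-type O-glycosylation, scored 126, and its normalized tag count was 124.9 (95% Poisson interval 108 to 144). The ATF3-Ctrl peak 32 bp away from it had a normalized tag count of 53.3. The site near KCNF1, a potassium channel gene, had a normalized tag count of 93.8 (79.2 to 110), and the ATF3-Ctrl peak 2 bp away had 27.

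The other 7 of these 9 sites were nearest to ALKBH3, which encodes a DNA alkylation repair enzyme, LURAP1L, DUSP5, which encodes an ERK phosphatase, the cytokine gene IL18, the keratin gene KRT80, AZIN1, which encodes an antizyme inhibitor, and the co-chaperone gene DNAJB12. Their gaps to the ATF3-Ctrl peak were 4 to 72 bp. In all 9, the normalized tag count of the CPT-only peak was above that of its ATF3-Ctrl neighbour, by 1.89 to 3.47 times. These sites were picked for their high ATF3-CPT scores. The counts are scaled by total tags only, and 12.76% of tags lay in peaks in ATF3-CPT against 5.6% in ATF3-Ctrl. Whether ATF3 binding rose at these places was not tested. The tenth, near USP14, a gene for a proteasome-associated deubiquitinase, lay 480 bp from an ATF3-Ctrl peak with a higher normalized tag count (132.8 against 110.6) and 529 bp from an ATF3-KO peak, and its central 31 bases occurred 5 times in the genome. Whether such a pair of peaks marks 1 bound place or 2 neighbouring ones was not tested.

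Over the whole set such neighbours were uncommon and depended on the score. An ATF3-Ctrl peak lay within 126 bp of 452 sites (1.7%) and within 1000 bp of 2518 (9.46%), but within 1000 bp of 71 of the 100 highest-scoring sites. The share with an ATF3-Ctrl or ATF3-KO peak in 1000 bp was 4.38% at scores of 9 or 10 and 56.1% at 50 or more. The median gap to the nearest ATF3-Ctrl peak was 15221 bp, with quartiles of 5012 and 38489 bp, and 93.3% of the sites had one within 100000 bp. Leaving out every site with an ATF3-Ctrl or ATF3-KO peak within 1000 bp kept 24097 sites, and these are called isolated sites. This division was made after the scores had been seen.

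At the border of the rule, the sites just inside abutted an ATF3-Ctrl peak with no gap. One lay in an intron of NEDD4, the gene of a ubiquitin ligase, with a score of 75, and the other in an intron of SMAD3, which encodes a signal transducer of TGF-beta receptors, with a score of 58. Just outside, a peak near KSR2 with a score of 53 and a peak in an intron near GSN with a score of 47 shared 1 base with an ATF3-Ctrl peak.

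Among the isolated sites the highest scores were lower. The top score of 100, nearest to OR4F16, came from a region whose central 50 bases also occur in the mitochondrial genome, and its tags were only 4.03 times those of the 10 kb around it. Next came the DST site shown above, with a score of 82, a normalized tag count of 65.3 (53.2 to 79.4) and 54.72 times the local tags. The CDC73 site scored 76, and its normalized tag count was 55 (43.9 to 68), with ATF3-Ctrl and ATF3-KO peaks 3883 and 5881 bp away. The NCOA1 site had a score of 63, a normalized tag count of 56.3 (45.1 to 69.4) and 78.74 times the local tags, and no ATF3-Ctrl peak lay within 85750 bp of it. Isolated sites with scores of 66 to 73 were nearest to TYRO3, a receptor tyrosine kinase gene, ANK1, an ankyrin gene, USP14, the NOTCH target HEY1, FEM1B and HNRNPA3.

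The AP-1 core was the common element of the sites. It was found in 12265 CPT-only sites, or 46.1% (95% Wilson interval 45.5 to 46.7), against 2.1% of the sequences of the same width taken 1000 bp to either side. The sites found before and after held it in 49.5% (48.6 to 50.3), and all ATF3-CPT peaks in 40.6%. In the isolated sites the share was 46.8%. CPT-only peaks within 2000 bp of a TSS, by contrast, held it in 20.1%, and CPT-only peaks over 100000 bp from a TSS in 48.5%. The ATF/CRE core was rare: 166 CPT-only sites (0.623%) had it, against 0.0488% of the sequences 1000 bp away, and 0.953% of the sites found before and after. Only 19 sites held both cores, and 53.4% held neither.

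The cores lay close to the centres of the peaks. Within 200 bp around the centre, the nearest AP-1 core of the CPT-only sites was a median of 15.5 bp away, and 69.2% were within 25 bp. In the sites found before and after, the median was 14.5 bp. A second AP-1 core was present in 2.88% of CPT-only sites and in 6.52% of the sites found before and after. With the bases on its sides, the first core of a site most often read ATGAGTCAC (15.4% of 12221 sites with a core that was not at the peak's edge), ATGAGTCAT (13.8%) or GTGAGTCAC (12.6%), and in the sites found before and after these had 13.3%, 13.1% and 10.9%.

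**Figure D2:**
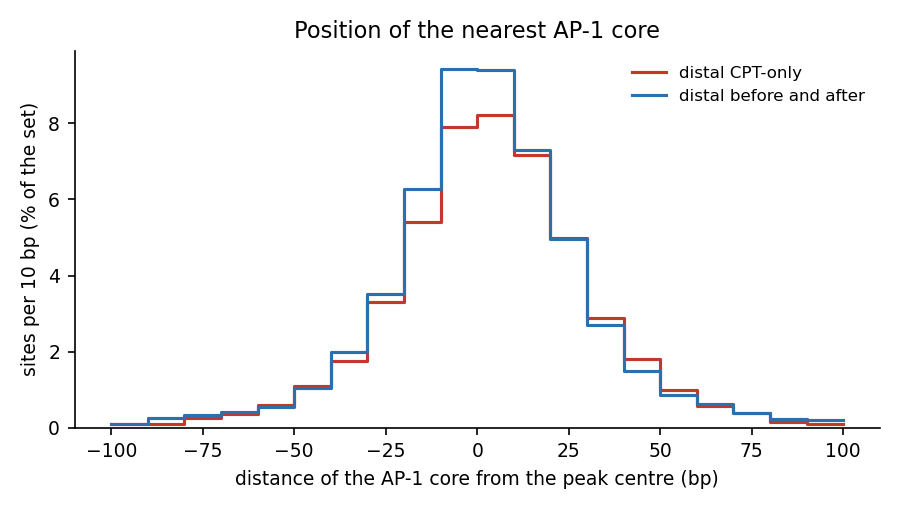
Distance of the nearest AP-1 core from the peak centre (x axis, bp) against the share of all sites of the set in each 10 bp (y axis, percent), for distal CPT-only sites and for distal sites found before and after CPT. Both curves are highest at the centre, and the highest bin of the CPT-only sites holds 8.21% of them.

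Many of the sites without a core held a sequence 1 letter away from AP-1. With 1 mismatch allowed, 78.4% of all CPT-only sites matched, which includes the sites with an exact core, but so did 36.1% of the sequences 1000 bp away. In the 14218 sites with neither core, TGAATCA was found in 12.1% (1.81% in the sequences 1000 bp away), TTAGTCA in 11.9% (1.27%), TGAGTAA in 7.55% (1.56%) and TGTGTCA in 7.27% (1.96%). The highest ratio, 12.7, belonged to CGAGTCA, which contains a CpG and was found in 2.6% of these sites and in 0.204% of the sequences 1000 bp away. Forms such as TGAGGCA and TGAGCCA were less frequent in the sites than 1000 bp away, with ratios of 0.781 and 0.848.

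Among the motifs searched, the C/EBP-ATF element had the largest ratio between the distal sites found before and after and the CPT-only sites. It was present in 328 CPT-only sites, or 1.23% (1.11 to 1.37), and in 0.379% of the sequences 1000 bp away. Of the sites found before and after, 1274 held it, or 8.86% (8.41 to 9.34). In sites without an AP-1 core the shares were 1.93% and 15%. Seen from the element, 20.5% of the 1602 distal ATF3-CPT peaks that held it were CPT-only, against 63.2% of those with an AP-1 core and 68.8% of those with none of the 3 sequences. The element was in 0.409% of CPT-only peaks within 2000 bp of a TSS and 1.45% of those over 100000 bp from one. All ATF3-CPT peaks held it in 3.51%. A low share was thus not particular to the distal CPT-only sites.

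The reverse set, distal ATF3-Ctrl peaks with no base in common with an ATF3-CPT or ATF3-KO peak, held the opposite mixture. This set was drawn up after the shares above had been seen. It had 3381 peaks of 127 bases with a median score of 10 in ATF3-Ctrl, of which 1590, or 47% (45.3 to 48.7), held the C/EBP-ATF element and 5.18% (4.48 to 5.97) the AP-1 core. Without those that had an ATF3-CPT or ATF3-KO peak within 1000 bp, 2412 remained, with 59.1% and 2.86%. The 158 peaks of the reverse set with a score of at least 20 held the element in 25.9% and the AP-1 core in 17.1%. The element of the reverse set lay a median of 12 bp from the peak centre, and that of the CPT-only sites 19 bp. None of the 431 distal ATF3-KO peaks held the element, which allows a share of up to 0.883% (upper Wilson limit), and 8.12% of them held an AP-1 core. Sites listed only before CPT thus held the C/EBP-ATF element more often, and the AP-1 core less often, than sites listed only after CPT, with 1 library each. The element's share of 1.23% in CPT-only sites was still above the 0.379% of the sequences 1000 bp away.

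**Figure D3:**
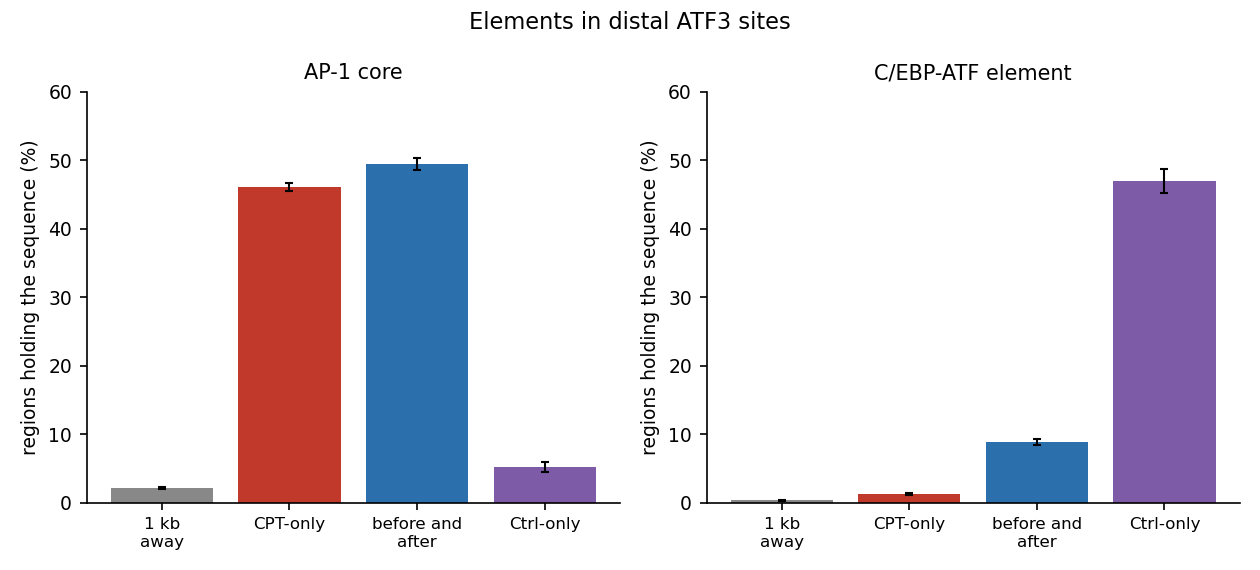
Share of regions (y axis, percent, bars with 95% Wilson intervals) that hold the AP-1 core (left) or the C/EBP-ATF element (right) in sequences 1000 bp from the CPT-only sites, distal CPT-only sites, distal sites found before and after, and distal ATF3-Ctrl peaks with no ATF3-CPT or ATF3-KO peak (Ctrl-only). The AP-1 core stands at 46.1% in CPT-only and 5.18% in Ctrl-only sites, the C/EBP-ATF element at 1.23% and 47%.

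The contrast in the C/EBP-ATF element was also present among peaks of the same score in ATF3-CPT below 50, although the sites found before and after had to be listed in ATF3-Ctrl as well, where 39.1% of all 18055 distal peaks held the AP-1 core and 16% the element. At scores of 9 or 10, where the 2 sets have the same range of tags, the AP-1 core was in 36.9% of 7391 CPT-only sites and in 7.64% of 576 sites found before and after, whereas the C/EBP-ATF element was in 2.1% and 36.8%. At scores of 20 to 29 the AP-1 shares were 56.7% and 43.9%, and the element shares 0.224% and 7.36%. At 30 to 49 the AP-1 shares were 61.7% and 58.2%, with intervals that overlapped only slightly, and the element shares were 0.127% and 3.59%. Among the 189 CPT-only sites of 50 or more, of which 56.1% had another ATF3 peak within 1000 bp, the AP-1 share was 55.6% (48.4 to 62.5) against 64.9%. There the element shares were 1.59% (0.541 to 4.56) and 4.35% (3.79 to 4.98), with intervals that overlapped.

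**Figure D4:**
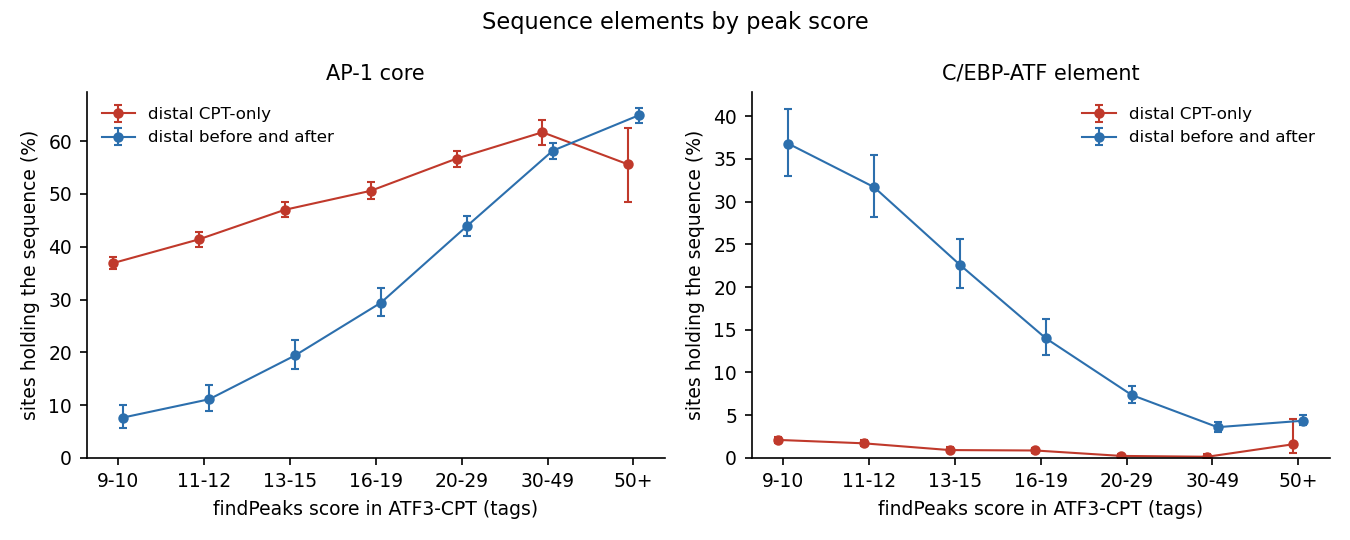
Share of sites that hold the AP-1 core (left) or the C/EBP-ATF element (right) (y axes, percent, points with 95% Wilson intervals) by findPeaks score in ATF3-CPT (x axis, tags), for distal CPT-only sites and distal sites found before and after. In the lowest group the AP-1 core is at 36.9% and 7.64% and the element at 2.1% and 36.8%.

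Of the CPT-only sites with the C/EBP-ATF element, the 6 highest-scoring all lay within 1000 bp of an ATF3-Ctrl peak. They were nearest to LURAP1L, LIF, a cytokine gene, CALCB, PHLDB2, AK5 and COL21A1, with scores of 112, 73, 64, 36, 33 and 29. The next highest, near NECTIN3 with a score of 25 and near OSGIN2 with 24, were isolated, as was the LCOR site with 24. The median score of the 328 sites was 11. For the ATF/CRE core, high-scoring sites were nearest to CD82, the growth factor gene FGF18, CNFN and TMEM132B, with scores of 52, 46, 41 and 39. Sites with the AP-1 core only had a median score of 14, those with the ATF/CRE core only 13, and those with neither 12.

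Other short motifs differed less between the sets. The TEAD motif GGAATG was found in 13.1% of CPT-only sites, 6.76% of the sequences 1000 bp away and 15.9% of the sites found before and after. The SP/KLF motif GGGCGGG had 2.2%, 0.926% and 2.91%, and AGGGGGC, a part of the CTCF motif, 3%, 1.57% and 2.62%. The motif AGATAA of GATA factors was less frequent in the sites than beside them, at 5.4% and 7.93%, and the general C/EBP motif TTGCNNAA was about equal at 6.48% and 5.95%. The sites had a median GC content of 48% against 44% in the sequences 1000 bp away, which moves with such counts, and the part of base composition in them was not tested.

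In their position, the CPT-only sites resembled the distal sites found before and after. An intron of a protein-coding gene held 55.6% (55 to 56.2) of them and 54.5% (53.7 to 55.3) of the sites found before and after, and 32.5% of both lay outside genes of any type. Upstream of the nearest TSS were 48.4% and 48.1%, and within 10000 bp of it 26.3% and 26.3%. The median distance to the TSS was 22000 bp. The sites lay near each other as well, with a median of 13954 bp to the next CPT-only site and 29189 bp to the nearest distal site found before and after, a set that is smaller. The central 31 bases of 90.6% of the sites occurred once in the genome, and those of 967 sites (3.63%) 10 times or more, where tags cannot be placed with certainty.

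Chromosomes differed in density. There were 9.39 sites per Mb of sequenced genome in all, 18.6 on chromosome 17 and 3.43 on chromosome X. For each distal site found before and after there were 1.85 CPT-only sites over all chromosomes, 1.56 to 2.13 on the autosomes and 2.93 on chromosome X, where 518 of 696 distal ATF3-CPT peaks (74.4%, 71.1 to 77.5) were CPT-only against 64.3% on the autosomes. The median score of CPT-only sites was 13 on chromosome X and 13 on the autosomes, while that of the sites found before and after was 28 and 36. Copy number was not measured, and its part in these values was not tested.

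A small number of sites coincided with p53 after CPT. A p53-CPT peak overlapped 244 sites, or 0.916% (0.809 to 1.04), against 1.3% of all ATF3-CPT peaks and 1.2% of the sites found before and after. A p53-KO peak, which cannot hold p53, overlapped 61 sites (0.229%) against 0.429% of all ATF3-CPT peaks. Of the 244, 199 had no p53-KO peak and 45 had one. The 199 were 0.747% of the CPT-only sites, against 0.975% of all ATF3-CPT peaks and 0.995% of the sites found before and after. The p53 consensus, with at most 3 mismatches in 200 bp, was found in 94 of the 199 (47.2%, 40.4 to 54.2), in 1 of the 45 and in 4.88% of the sites with no p53-CPT peak. The AP-1 core was found in 63 of the 199 (31.7%), which is below the 46.1% of all CPT-only sites, and 28 held both.

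Among the 10 of these sites with the highest p53-CPT score, the first, near CTBP2, lay in sequence of low complexity and had a p53-KO peak as well (p53 scores 144 and 141), and the tenth, near C2CD4D, also had both (65 and 61). The next highest p53 score, 127, belonged to a site 8272 bp upstream of MTHFD1L, a gene of mitochondrial folate metabolism, where the p53 consensus matched with 0 mismatches, shown in capitals in the plus strand of hg19 at chr6:151178481-151178605. Its ATF3-CPT score was 18, an ATF3-Ctrl peak lay 254 bp away, and its central 31 bases occurred 3 times in the genome.
MTHFD1L site: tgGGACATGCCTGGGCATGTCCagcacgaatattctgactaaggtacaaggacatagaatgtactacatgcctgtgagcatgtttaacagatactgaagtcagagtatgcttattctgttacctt

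The other sites of this group showed every mixture of strong and weak ATF3 signal. The site near THNSL2 had a p53 score of 118 and an ATF3-CPT score of 9. SPATA31D1, AEBP2 and CD70, a TNF family ligand gene, had p53 scores of 86, 84 and 73 with ATF3-CPT scores of 31, 30 and 15. The sites near ANK1 and PLK2, the second a known p53 target gene for a polo-like kinase, both had an ATF3-CPT score of 13, with p53 scores of 71 and 67. The p53 consensus was found at the sites near SPATA31D1, CD70 and PLK2, and not at those near THNSL2, AEBP2 and ANK1.

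The ATF3 gene itself had such a site, at chr1:212769772-212769896, 12269 bp upstream of the nearest TSS and inside an intron of the longer transcripts. It had an ATF3-CPT score of 81, with a normalized tag count of 63.4 (51.5 to 77.3), and a p53 score of 89. The p53 consensus, as defined above, was not found at this site. It holds 1 AP-1 core, in capitals on the plus strand of hg19. An ATF3-Ctrl peak lay 43 bp away from it and did not overlap it. Whether these peaks mark the same bound place, and so whether the site was bound before CPT, was not tested.
ATF3 site: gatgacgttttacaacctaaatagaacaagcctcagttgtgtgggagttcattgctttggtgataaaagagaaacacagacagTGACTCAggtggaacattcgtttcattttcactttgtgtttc

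Further sites under a p53-CPT peak and no p53-KO peak lay near genes of the lists that follow: AREG and TGFA, both EGFR ligand genes, with p53 scores of 40 and 23, BIRC3 and TNFAIP3 of the NF-kB pathway with 36 and 14, PSAT1, an enzyme gene of serine synthesis, with 12, the integrin gene ITGA2 with 10, and ID3 and MYC with 8 each. Each of these 8 had the p53 consensus. The sites near ITGA6 and KLF13 had p53 scores of 7 and 8 without it. In the list of 26 p53 target genes, PLK2 was the only gene nearest to such a site. Over all 19756 protein-coding genes, 195 (0.987%) were nearest to one.

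The sites were spread over many genes. At least 1 site had its nearest TSS in 10113 of 19756 protein-coding genes (51.2%), and 4100 of these had 1 site. There were 216 genes with 10 sites or more, and these held 10.3% of all sites. The 10 genes with the most sites, with a tie at 19 sites settled by summed score, were long, between 270 and 833 kb. Left out by that tie were MSI2 of 429 kb and the shorter ARHGAP18 and ARHGAP29 of 134 and 126 kb. DST, a cytoskeletal linker gene, had 37 sites, PSD3 27, ARHGAP26 23, and the actin scaffold gene PALLD 23. The polarity gene PARD3 and ASAP1 had 22 each, ZBTB20 and the transcription factor gene TEAD1 21 each, the ankyrin gene ANK3 20 and TANC2 19. The 37 DST sites, all in introns, had scores from 9 to 82 with a median of 15, and 10 of them held an AP-1 core. Long genes offer more sequence to the rule, and the part of length in these counts was not tested.

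Genes with a CPT-only site differed little from all genes in the share with an ATF3-Ctrl peak in the promoter, except where a gene had many sites. An ATF3-Ctrl peak within 2000 bp of a TSS was found for 40.9% of all protein-coding genes, for 38% of those nearest to no site and for 43.7% of those nearest to a site. The share was 41.1% for genes with 1 site, 42.6% for 2 to 4, 51.6% (48.8 to 54.4) for 5 to 9 and 69% (62.5 to 74.8) for 10 or more. Of the sites, 48.1% had such a nearest gene, against 51.4% of the sites found before and after and 39.5% of the CPT-only peaks over 100000 bp from a TSS, and for 6.91% of the sites the nearest gene had an ATF3-KO peak in its promoter. A distal site found before and after belonged to 53.7% of the genes with a CPT-only site and to 34.3% of all genes. For 2788 genes (27.6% of those with a CPT-only site) there was neither an ATF3-Ctrl promoter peak nor a distal site found before and after. Distal ATF3-Ctrl peaks outside that set were not counted, so some of these genes may have had one. The same share was not computed over all protein-coding genes, so the 27.6% has no background and does not mark genes newly reached by ATF3. Promoter shares moved with the TSS set used, as given in the closing section.

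Beside the 51.2% of all genes, the listed pathways had a site for 57.1% to 92.9% of their genes. These lists were chosen with earlier results known, hold many genes with long introns or wide surroundings, and were not tested. Of the genes for laminin-332 and epithelial integrins, which anchor epithelial cells to the basement membrane, 13 of 14 had a site. The hyaluronan receptor gene CD44 had 10 sites with scores up to 29, and ITGA6 had 8 with scores up to 47. Of the TGF-beta pathway and ID genes, 18 of 20 had a site, led by SMAD3 with 15 sites and the inhibitory SMAD6 with 12.

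The WNT pathway and colon stem list had a site for 19 of 22 genes. The WNT effector gene TCF7L2 had 17 sites, 11 of them with an AP-1 core and the highest with a score of 64, and MYC had 11. In the list of MAPK feedback genes and EGFR ligands, 17 of 20 had a site, with 15 for the EGFR inhibitor gene ERRFI1 and 14 for EGFR itself. The KLF list had 11 of 13, with 9 sites for KLF6 and 8 for KLF7, and the YAP and TEAD list 13 of 18, with 21 for TEAD1 and 12 for YAP1.

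The lists of NF-kB and inflammatory genes (16 of 23), epithelial-mesenchymal transition genes (9 of 13), integrated stress response genes (14 of 20), p53 target genes (17 of 26), ATF and CREB family genes (11 of 17) and AP-1 family genes (8 of 14) lay nearer to the share of all genes. TNFAIP3, which encodes an NF-kB inhibitor, had 8 sites and BIRC3 7. EPCAM, which encodes an epithelial adhesion molecule, and SNAI1, which encodes a repressor of epithelial genes, had 7 each, and SNAI1 had no ATF3-Ctrl peak in its promoter. DDIT4, an mTORC1 inhibitor gene, had 6 sites with a median score of 34, and STC2 had 4.

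**Figure D5:**
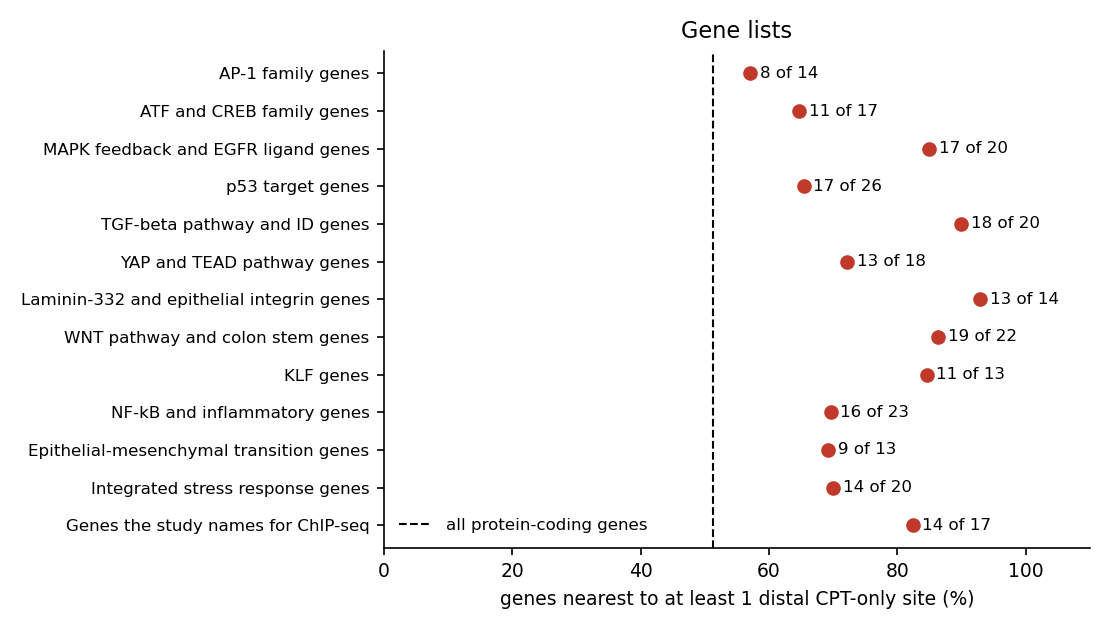
Share of the genes of each list that were nearest to at least 1 distal CPT-only site (x axis, percent), with the number of genes beside each point and the share of all 19756 protein-coding genes, 51.2%, as a broken line. The lists run from 57.1% (AP-1 family genes) to 92.9% (laminin-332 and epithelial integrin genes).

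Within the ATF and CREB families 11 of 17 genes had a site, and within the AP-1 family 8 of 14. CREB5, which is 527 kb long, had 15 sites and CEBPB, which encodes a C/EBP protein, 7, all of them isolated. BATF3, which encodes a basic leucine zipper partner of JUN and neighbours ATF3 on chromosome 1, had 6 isolated sites with scores of 9, 10, 11, 11, 15 and 21, and 3 of them held an AP-1 core. BATF3 had no ATF3 peak in its promoter in any library and no distal site found before and after. FOSL2 had 5 sites, and each held an AP-1 core. The 6 sites nearest to ATF3 had scores of 12, 19, 25, 32, 44 and 81, and 4 held an AP-1 core.

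Of the 17 genes that the study discusses for its ChIP-seq data, 14 had a site, and these genes were chosen on these samples. GADD45A, a growth arrest gene, had 8 sites with scores from 15 to 33, of which 7 lay in introns outside GADD45A itself, and 9 distal sites found before and after. MDM2, which encodes the ubiquitin ligase of p53, had 5 isolated sites with scores of 12 to 21 and 1 distal site found before and after. CDKN1A, the p21 gene, had 3 sites with scores of 10, 18 and 32, the last 162 bp from an ATF3-Ctrl peak, and the apoptosis gene BBC3 had 2, up to a score of 26. RGS2 had 5 isolated sites up to a score of 35 and no ATF3-Ctrl peak in its promoter. No distal CPT-only site was nearest to BAX, GDF15 or UTP23, and each of these had an ATF3-Ctrl peak in its promoter. The BAX promoter also had an ATF3-KO peak, so its peak need not be ATF3.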

How the data were processed

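ChIP-seq peak lists of 5 libraries were used. Reads had been aligned to hg19 and peaks called per library without an input, and the submitters' processing notes name BWA 0.6.1 and HOMER 4.1. The authors deposited a normalized tag count, a signal per 10000000 tags of the library, and a findPeaks score, a tag count that is not adjusted for depth. The deposited fold over the local region was used as given. The deposited p-values, the focus ratio (a fraction) and the clonal ratio were not used in results.

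Genes, TSS and exons were those of GENCODE 44 mapped to GRCh37, and sequence was read from GRCh37, the build of hg19. TSS were those of protein-coding transcripts, and an overlap needed 1 shared base. Cores were searched as exact matches on both strands of the peak. Backgrounds were sequences of the same width 1000 bp to either side, all ATF3-CPT peaks and the distal sites found before and after. Shares have 95% Wilson intervals and tag counts exact Poisson intervals, which cover counting error only. Peaks under the thresholds of 9 tags (11 in ATF3-KO, 7 and 6 in p53-CPT and p53-KO) could not be listed, which limits what the depth can show. Low complexity was a peak whose distinct 6-base words were under 0.5 of its words.

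Named were the 10 highest-scoring sites, the 10 genes with most sites, the 2 genes with most sites in each list, the 10 sites with the highest p53-CPT score, the 5 highest-scoring ATF/CRE sites (1 of which is not reported here), the sites nearest the threshold and the genes the study names. The members, lists and tests were chosen with earlier results of these data known. Isolated sites, the C/EBP-ATF comparisons by score and by set, and other sites named were chosen after values were seen. The scripts, in Python 3.11.15 with pandas 2.3.3, NumPy 2.4.6 and SciPy 1.17.1, were tested on simulated data.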

Additional observations from a re-analysis of the deposited data

How the results depend on the processing

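No paired analysis was possible because each group had 1 library. Of 74 values under other settings, for 9 results, 44 stayed within the counting interval of the reported value or within 1.5 times a count, and 30 did not. The results were shares, counts and medians, for which no reversal was defined. With a score of at least 20, 5788 sites remained, which were 33.5% of distal peaks, with a median score of 25, an AP-1 share of 58%, a C/EBP-ATF share of 0.242%, an intron share of 54.7%, a p53-CPT share of 1.28% and a promoter share (nearest gene with an ATF3-Ctrl promoter peak) of 50.9%. The sites found before and after then held the AP-1 core in 57.7% and the C/EBP-ATF element in 4.73%. The median normalized tag count was 8.4.

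With no ATF3-Ctrl or ATF3-KO peak within 1000 bp, the CPT-only share was 58.3% and the AP-1 share 46.8%, and with less than 0.5 of the peak covered the CPT-only share was 66.3%. With 1 TSS per gene, the AP-1, intron and promoter shares were 45.4%, 54.8% and 38%, and with TSS of genes of every type 47.1%, 49.6% and 33.5%. Over 5000 bp from a TSS, the intron share was 53.9%. In unique sequence of normal complexity, a setting added after the data had been seen, the intron share was 56.4% and the AP-1 share 45.3%.

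With 1 mismatch, AP-1, ATF/CRE and C/EBP-ATF were in 78.4%, 14.1% and 13.5% of sites, and in 200 bp windows AP-1 was in 48.1% and C/EBP-ATF in 1.4%. All settings of the C/EBP-ATF share were added after seeing the data. p53-CPT peaks within 500 bp of the centre gave 1.48%, and leaving out those with a p53-KO peak 0.729%. The promoter share was 43.1% with 1000 bp and 16.3% with an ATF3-Ctrl score of at least 20. The causes of these shifts were not tested, beyond what each setting leaves out by construction. Depth limited the comparison of weak sites, as 27.8% scored below the ATF3-Ctrl threshold scaled by total tags. Only 24.6% had a lower Poisson bound that reached it.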
